A study of Mus musculus with 6 samples.

Results

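The lipid-associated macrophage genes are 10 genes (*Lgals3*, *Trem2*, *Gpnmb*, *Cd9*, *Spp1*, *Itgax*, *Mmp12*, *Cd68*, *Atp6v0d2*, and *Msr1*) known as marks of macrophages that take up lipid. Their expression was read in interscapular brown adipose tissue (iBAT) of *ob/ob* and control mice. A probe was taken as one of theirs when its RefSeq accession belonged to the symbol. By this rule 9 of the 10 genes, with 12 probes, were found among the 20630 gene symbols on the array. *Cd68*, a lysosomal membrane glycoprotein, had no probe that could be named through its accession and was not analysed here. The 9 genes all passed the filter on dim probes, as did 19011 of the 20630 symbols. The genes were chosen from the comparison of *ob/ob* with control iBAT on these same arrays, so their values in it are a description and carry no test.

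In obese fat, macrophages gather around dying adipocytes, engulf their lipid droplets and digest them in lysosomes. Trem2 is a surface receptor that binds lipids and lipoproteins, signals through the adaptor Tyrobp and is needed for the lipid-handling state of these cells. The other genes of the list encode surface receptors and adhesion proteins, secreted lectins and enzymes, and parts of the lysosome. Several are also made outside macrophages, such as *Cd9* and *Lgals3*.

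The samples came from male C57BL/6 mice labelled as 16 weeks old. In 3 of them the genotype is given only as control, and in 3 it is *ob/ob*, in which the leptin gene is mutated and the mice become obese. Total RNA was labelled with a single dye, and each sample was hybridized to 1 Agilent whole-genome mouse array. The labels do not say whether RNA of several mice was pooled or whether samples of a group came from separate mice, so the spread between arrays may be technical. Values are log2 of the background-corrected spot signal after quantile normalization between the 6 arrays. A difference of 1 on this scale is a 2-fold difference in signal. A probe counts as detected on an array when at least 0.5 of its spots lay well above background, and it was kept when detected on at least 3 of 6 arrays. In whole tissue, more cells of a type and more RNA per cell cannot be told apart.

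A pair of arrays stood apart from their groups. Over the 35448 probes tested, control 3 had a Spearman correlation of 0.915 and 0.944 with *ob/ob* 1 and *ob/ob* 2, higher than its 0.642 and 0.730 with the other control arrays. The correlation of *ob/ob* 3 was 0.858 with control 1, higher than its 0.573 and 0.488 with the other *ob/ob* arrays. The 9 genes are therefore given with and without these arrays, and the lists by their medians. The share of spots well above background ranged from 83.5% to 89.9%, and no spot was saturated. The arrays were read in 4 scans, of which 1 held control 1, control 3, and *ob/ob* 1, so that only these can be compared within a scan. *Ucp1*, which defines brown adipocytes, was detected on all 6 arrays, with log2 signals of 13.05, 11.72, and 9.48 on the control arrays 1, 2, and 3, against 8.93, 9.12, and 10.03 on the *ob/ob* arrays 1, 2, and 3. *Lep* mRNA need not be lost in *ob/ob* mice, so its probe does not check the genotype. Its log2 signal was 5.74, 4.57, and 5.30 on the control arrays, against 6.68, 5.83, and 9.33 on the *ob/ob* arrays.

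In the comparison that chose them, 3 of the 9 genes were higher in every *ob/ob* array than in every control array. These were *Lgals3*, *Trem2*, and *Atp6v0d2*, and the same was true of 3.78% of all genes tested. The other 6 genes (*Gpnmb*, *Mmp12*, *Msr1*, *Itgax*, *Spp1*, and *Cd9*) had overlapping groups, and none was lower without overlap, against 4.22% of all genes. All 9 genes had their highest value on *ob/ob* 3, as did 30.2% of all genes tested. The mean difference between *ob/ob* and control was positive for 8 of 9 genes, against 42.8% of all genes, and negative for *Cd9*.

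The upstream sequences of *Trem2*, *Lgals3*, and *Itgax* are shown as examples of the DNA before the start site, the first and second from genes whose groups did not overlap and the third from one whose groups did. *Atp6v0d2* and *Msr1* had no promoter entry. Each is the 250 bases before the annotated start, from RefSeq on GRCm38.p6, written 5′ to 3′ on the gene's strand. The windows lie at chr17:48346151-48346400 for *Trem2*, chr14:47373610-47373859 for *Lgals3*, and chr7:128129300-128129549 for *Itgax*, all on the + strand. Capitals mark matches to the core bound by PU.1, the main macrophage transcription factor (GAGGAA, or TTCCTC on the other strand), and to the AP-1 site (TGANTCA, which reads alike on both strands).
Trem2: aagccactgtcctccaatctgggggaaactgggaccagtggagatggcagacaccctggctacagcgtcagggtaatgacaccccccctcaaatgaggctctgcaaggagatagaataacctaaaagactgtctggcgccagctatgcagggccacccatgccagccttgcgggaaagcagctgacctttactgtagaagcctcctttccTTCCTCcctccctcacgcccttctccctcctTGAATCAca
Lgals3: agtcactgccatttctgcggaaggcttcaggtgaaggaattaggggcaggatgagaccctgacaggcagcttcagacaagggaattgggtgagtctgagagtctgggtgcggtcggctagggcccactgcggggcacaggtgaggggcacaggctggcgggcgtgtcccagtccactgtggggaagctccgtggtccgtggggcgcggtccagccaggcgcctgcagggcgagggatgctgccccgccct
Itgax: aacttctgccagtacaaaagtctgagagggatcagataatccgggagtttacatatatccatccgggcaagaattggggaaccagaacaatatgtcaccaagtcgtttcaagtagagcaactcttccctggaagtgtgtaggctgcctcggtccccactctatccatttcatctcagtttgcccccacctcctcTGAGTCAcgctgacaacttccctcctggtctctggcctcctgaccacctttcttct

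In the *Trem2* window the PU.1 core began 40 bases and the AP-1 site 9 bases before the start, and in the *Itgax* window an AP-1 site began 56 bases before it. These letters were not in the *Lgals3* window. Of the 10 promoter entries of 8 genes (*Cd68* included, and *Mmp12* and *Spp1* with more than 1 entry), 4 held the PU.1 core and 4 the AP-1 site. Over 32851 mouse promoters of the same length, 23.3% held the PU.1 core and 6.75% the AP-1 site. The E-box of the lysosomal regulators of the MiT/TFE family (CACGTG) was in 0 of the 10 entries and in 6.02% of all promoters. Its variant bound by Mitf (CACATG or CATGTG) was in 2 of the 10 and in 12.3% of all. A match is a description of the sequence and not evidence of a bound site.

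Among the surface receptors, *Trem2* had log2 signals of 4.88, 4.97, and 5.37 on control arrays 1, 2, and 3, against 7.18, 6.26, and 8.53 on *ob/ob* arrays 1, 2, and 3. The groups were separated by 0.89, and *ob/ob* 3 was the highest array. The means were 5.07 ± 0.26 and 7.32 ± 1.14 (SD, n = 3), a difference of 2.25 with a standard error of 0.61, or 4.76-fold. Without *ob/ob* 3 the difference was 1.65, without control 3 it was 2.40, and between *ob/ob* 1 and the mean of the 2 controls of its scan it was 2.06. The lowest *ob/ob* array of *Trem2*, *ob/ob* 2, lay above all controls, so the difference had to be positive in each of these comparisons. With normexp background correction the difference was 1.22.

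*Msr1*, a scavenger receptor that takes up modified lipoproteins, had log2 signals of 4.54, 4.73, and 5.28 on the control arrays, against 4.91, 5.17, and 6.22 on the *ob/ob* arrays. The groups overlapped, since control 3 lay above *ob/ob* 1 and *ob/ob* 2. The difference was 0.59 with a standard error of 0.46, and it was 0.19 without *ob/ob* 3 and 0.80 without control 3. Within the shared scan *ob/ob* 1 differed from the mean of its 2 controls by only 0.00055. A second *Msr1* probe was detected on 3 of 6 arrays (control 1, *ob/ob* 1, and *ob/ob* 3). It read 3.93, 3.72, and 3.43 against 3.94, 4.33, and 7.86, with groups that did not overlap and a difference of 1.69. That difference includes 3 arrays on which the probe was not detected, and *ob/ob* 3 stood far above all others. The lowest *ob/ob* value of that probe and the highest control value differ only in the second decimal.

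*Itgax*, which encodes the integrin CD11c of dendritic cells and of macrophages in obese fat, had log2 signals of 4.64, 4.74, and 5.19 on the control arrays. On the *ob/ob* arrays they were 4.54, 4.81, and 6.89. *ob/ob* 1 lay below all controls, and *ob/ob* 3 lay 1.71 above the next array. The difference of 0.56 (standard error 0.67) became −0.18 without *ob/ob* 3, 0.73 without control 3, and −0.37 within the shared scan.

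*Cd9*, a tetraspanin of the cell surface found in many cell types, had the largest SD of the 9 genes within each group. It read 10.14, 10.43, and 7.04 on the control arrays, against 7.46, 6.33, and 11.52 on the *ob/ob* arrays. Control 3 was near *ob/ob* 1 and *ob/ob* 2, while *ob/ob* 3 was near control 1 and control 2, the same grouping that the arrays showed over all probes. The means were 9.21 ± 1.88 and 8.44 ± 2.73 (SD, n = 3), a difference of −0.76 with a standard error of 1.55. It was −2.31 without *ob/ob* 3, −1.85 without control 3, −1.13 within the shared scan, and 0.29 without *ob/ob* 2. The direction of *Cd9* thus turned when a single array was left out.

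*Gpnmb*, a glycoprotein of lysosomes and the cell surface, read 4.35, 4.70, and 3.53 on the control arrays, against 4.23, 3.74, and 7.46 on the *ob/ob* arrays. It was detected on 4 of 6 arrays (control 1, control 2, *ob/ob* 1, and *ob/ob* 3). The difference of 0.95 (standard error 1.01) rested on *ob/ob* 3, which lay 2.75 above the next array, and was −0.21 without it. Without control 3 it was 0.61, and within the shared scan 0.29.

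**Figure D1:**
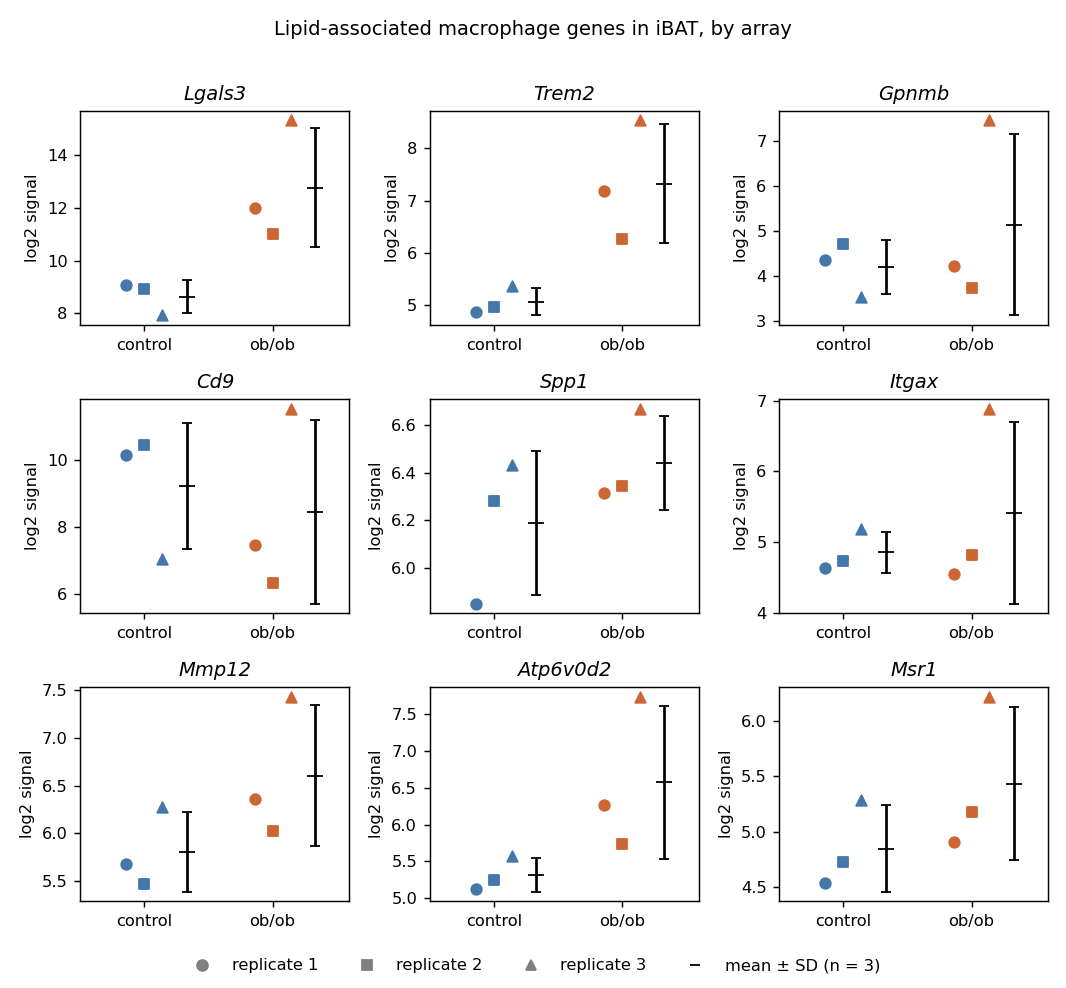
Log2 signal (quantile normalized) of each of the 9 genes on each array, with the vertical axis scaled to each gene. Points are single arrays, shaped by replicate number, and bars are the mean ± SD (n = 3). *ob/ob* 3 is the highest point in every panel, and the 3 *ob/ob* points lie above the 3 control points for *Lgals3*, *Trem2*, and *Atp6v0d2*.

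Among the secreted proteins, *Lgals3* had the largest difference of the 9 genes. It encodes galectin-3, a lectin that binds galactose-containing sugars on glycoproteins and is abundant in macrophages. Its log2 signal was 9.08, 8.93, and 7.92 on the control arrays, against 11.99, 11.01, and 15.33 on the *ob/ob* arrays. The lowest *ob/ob* array lay 1.93 above the highest control array, and *ob/ob* 3 lay 3.34 above the next array. The means were 8.64 ± 0.63 and 12.78 ± 2.27 (SD, n = 3), a difference of 4.13 with a standard error of 1.12, or 17.6-fold. It was 2.86 without *ob/ob* 3, 3.77 without control 3, and 3.49 within the shared scan. Among the 14 alternatives tried, the difference of *Lgals3* ranged from 2.50 to 5.02.

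*Mmp12*, the macrophage elastase that degrades elastin, read 5.68, 5.47, and 6.27 on the control arrays, against 6.35, 6.02, and 7.43 on the *ob/ob* arrays. The groups overlapped because control 3 lay above *ob/ob* 2. The difference was 0.80 with a standard error of 0.48, and 0.38 both without *ob/ob* 3 and within the shared scan. Without control 3 it was 1.03, and the groups then did not overlap, as was true of 12.7% of all genes without that array. A second *Mmp12* probe was well above background only on *ob/ob* 3, where it read 5.27, and was not tested.

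*Spp1*, which encodes the matrix protein and cytokine osteopontin, had the smallest difference and the smallest range over the 6 arrays. It read 5.85, 6.28, and 6.43 on the control arrays, against 6.31, 6.34, and 6.67 on the *ob/ob* arrays. Control 3 lay above *ob/ob* 1 and *ob/ob* 2, and the difference of 0.26 was below its standard error of 0.33. It was 0.14 without *ob/ob* 3, 0.38 without control 3, and 0.17 within the shared scan. *Spp1* was the only gene of the 9 whose SD was larger in the control than on the *ob/ob* arrays.

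*Atp6v0d2* encodes a subunit of the proton pump that acidifies lysosomes, used by macrophages and osteoclasts and known for its part in cell fusion. It read 5.13, 5.25, and 5.57 on the control arrays, against 6.26, 5.73, and 7.74 on the *ob/ob* arrays. The gap between the groups was narrow, at 0.17 between control 3 and *ob/ob* 2. The difference was 1.26 with a standard error of 0.57, or 2.40-fold, and was 0.68 without *ob/ob* 3, 1.39 without control 3, and 0.92 within the shared scan. A second probe, not tested because it was detected only on *ob/ob* 1 and *ob/ob* 3, read 1.73, 2.92, and 1.76 against 3.80, 2.98, and 6.92. No control array and not *ob/ob* 2 was well above background for this probe, so no fold is given.

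Over the 9 genes, the median difference was 0.80, against −0.086 over all genes tested. Without *ob/ob* 3 it was 0.19, with 6 positive and 3 negative differences. *ob/ob* 1 was above control 1 and control 3, the arrays of its scan, for 4 of 9 genes (*Lgals3*, *Trem2*, *Mmp12*, and *Atp6v0d2*), against 19.4% of all genes. *ob/ob* 1 and *ob/ob* 2 were both above all controls for 3 of 9, against 14.9% of all genes. These 3 are the genes without overlap over all 6 arrays, which had to pass both counts. The counts therefore add nothing to the comparison that chose the genes. A difference of at least 1 was seen for 3 of 9, against 6.69% of all genes. The genes therefore split into 3 that stood higher on each *ob/ob* array and 6 whose groups overlapped.

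**Figure D2:**
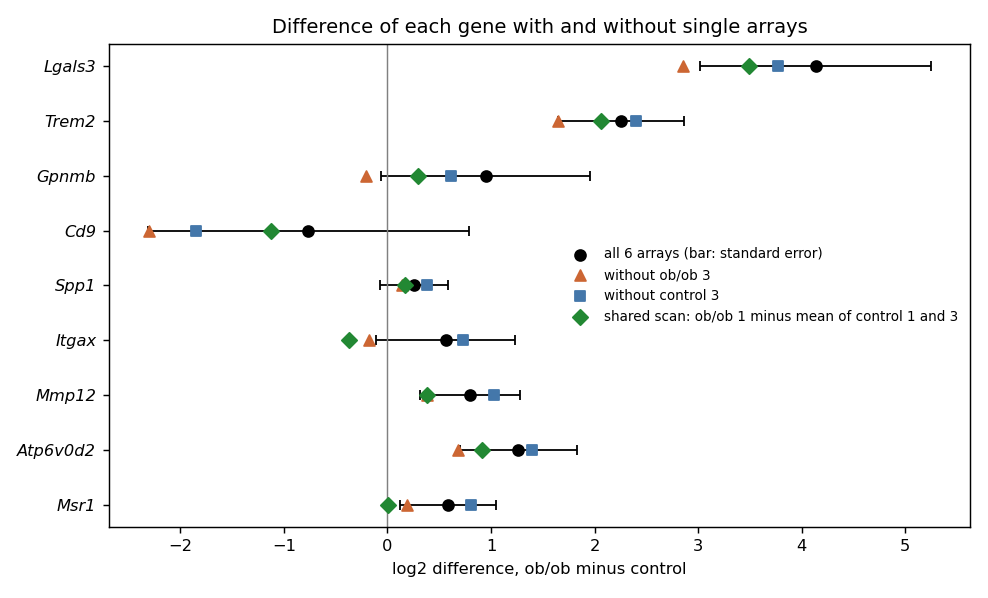
Log2 difference, *ob/ob* minus control, of each gene on the horizontal axis. Black points are all 6 arrays with bars of 1 standard error, triangles are without *ob/ob* 3, squares without control 3, and diamonds *ob/ob* 1 minus the mean of control 1 and control 3, which shared its scan. *Lgals3*, *Trem2*, *Atp6v0d2*, *Mmp12*, *Spp1*, and *Msr1* lie right of 0 in all 4 readings, *Msr1* by only 0.00055 within the shared scan. For *Lgals3*, *Trem2*, and *Atp6v0d2* this follows from groups that do not overlap. *Gpnmb* and *Itgax* cross 0, and *Cd9* stays left of it.

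Genes that act with these 9 were compared from 5 lists: the *Trem2* pathway, other lysosome and lipid handling genes of lipid-loaded macrophages, receptors and partners, family relatives, and transcription regulators. Of 94 genes listed, 90 were tested, and 0 passed an adjusted p under 0.05 (limma, Benjamini-Hochberg over all 35448 probes, lowest adjusted p 1.0), as was also true of all probes tested (0%). At an unadjusted limma p under 0.05, 1 gene was higher (*Trem1*) and 1 lower (*Lgals3bp*), against 2.04% and 1.69% of all genes. With the methods' t-test, which is unpaired, 1 of the 90 (*Lgals9*) passed unadjusted and 0 after adjustment. Of the 90 genes, 2 were higher and 3 lower without overlap, near the shares of all genes (3.78% and 4.22%). Their median difference was 0.078.

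Of the 11 *Trem2* ligands, adaptors, shedding enzymes, and signaling genes tested, 6 had a positive and 5 a negative difference, with a median of 0.16 and no gene without overlap. The median was −0.67 without *ob/ob* 3 and −0.24 without control 3. The largest differences were those of *Ms4a7*, a membrane protein of macrophages (1.1, standard error 0.92), and *Adam10*, a protease that sheds Trem2 from the surface (−1.27, standard error 1.85). *Tyrobp*, the adaptor of Trem2, was looked at after its values were seen. It read 6.37, 6.50, and 6.27 on the control arrays, against 6.42, 6.30, and 8.35 on the *ob/ob* arrays. Its difference of 0.64 (standard error 0.60) was −0.02 without *ob/ob* 3, so *Tyrobp* stood high on 1 array, whereas its receptor *Trem2* stood high on all 3.

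Among 24 other lysosome and lipid handling genes, 14 differences were positive and 10 negative, with a median of 0.10 that was −0.80 without *ob/ob* 3 and −0.78 without control 3. On *ob/ob* 3, 21 of the 24 had their highest value. Only *Capg*, an actin-capping protein of macrophages, was higher without overlap, at 6.96, 7.11, and 6.44 on the control arrays, against 7.81, 7.17, and 8.98 on the *ob/ob* arrays (difference 1.15, standard error 0.53). *Ctss*, which encodes the lysosomal protease cathepsin S, had the largest difference of the list (2.65, standard error 1.48) and was picked out after its values were seen. It read 7.55, 7.19, and 6.15 against 8.26, 7.44, and 13.14, with *ob/ob* 2 below control 1. The mean log2 signal of the list was 9.55, 9.19, and 7.31 on the control arrays, against 7.99, 7.48, and 11.12 on the *ob/ob* arrays.

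Of 14 receptors and partners tested, 9 differences were positive and 5 negative (median 0.072, 0.0057 without *ob/ob* 3 and 0.064 without control 3), and *Lgals3bp* and *Hspg2* were lower without overlap. *Lgals3bp*, which encodes a secreted glycoprotein bound by galectin-3, read 11.93, 12.82, and 12.23 on the control arrays, against 10.60, 10.78, and 7.54 on the *ob/ob* arrays. Its difference was −2.69 with a standard error of 0.91 (limma adjusted p 1.0). On *ob/ob* 3, where *Lgals3* was highest, *Lgals3bp* was lowest. *Hspg2*, the basement membrane proteoglycan perlecan, differed by −0.59 (standard error 0.36).

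Of 27 family relatives tested, 15 differences were positive and 12 negative, with a median of 0.095 (0.16 without *ob/ob* 3 and 0.068 without control 3). *Cd53*, a tetraspanin of leukocytes, was higher without overlap (0.84, standard error 0.49), and *Lgals9*, the lectin galectin-9, was lower (−0.48, standard error 0.29). Galectin-3 and galectin-9 thus stood on opposite sides, both without overlap. *Trem1*, an activating receptor of neutrophils and monocytes, read 10.04, 9.64, and 10.90 on the control arrays, against 12.00, 11.86, and 10.80 on the *ob/ob* arrays (difference 1.36, standard error 0.51, limma adjusted p 1.0). Unlike *Trem2*, it was highest on *ob/ob* 1, and its value on *ob/ob* 3 lay below control 3.

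Of 14 transcription regulators, 7 differences were positive and 7 negative, with a median of 0.024 (−0.20 without *ob/ob* 3 and −0.16 without control 3) and no gene without overlap. The largest were those of *Nr1h3*, the cholesterol sensor LXRα (−1.55, standard error 0.93), and *Mitf*, a regulator of *Gpnmb* and of lysosomal genes in macrophages and osteoclasts (1.47, standard error 0.66). *Mitf* was highest on *ob/ob* 1 and *ob/ob* 2.

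**Figure D3:**
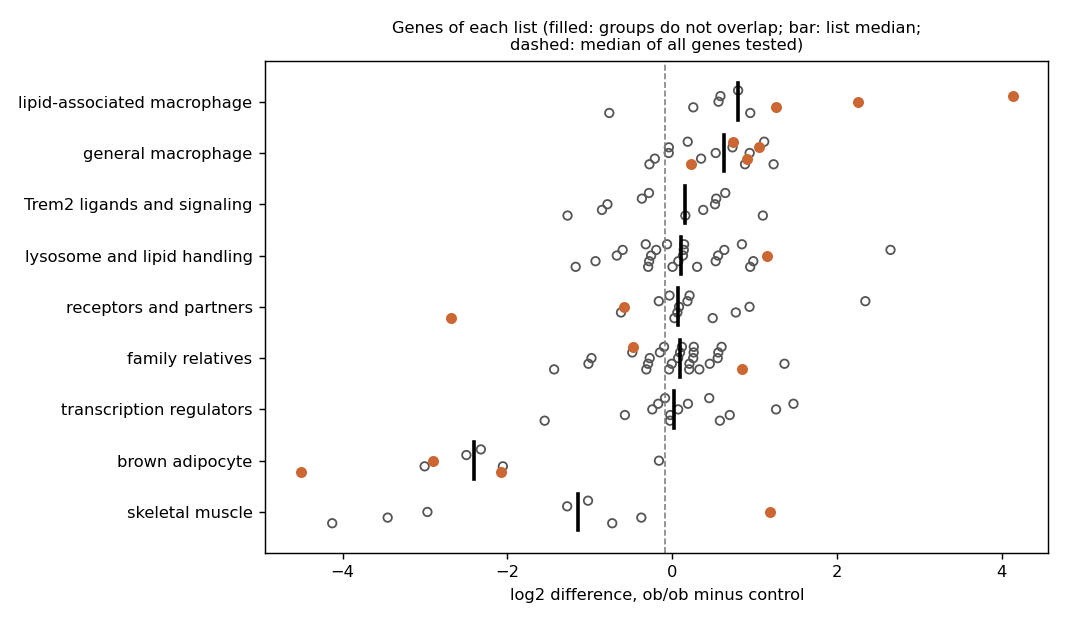
Log2 difference, *ob/ob* minus control, of every tested gene of 9 lists on the horizontal axis. Each circle is a gene, filled where the *ob/ob* and control arrays did not overlap. Vertical bars are list medians, and the dashed line is the median of all genes tested (−0.086). The medians were 0.80 for the lipid-associated macrophage genes, 0.63 for general macrophage markers, between 0.02 and 0.16 for the 5 related lists, −2.41 for brown adipocyte markers, and −1.15 for skeletal muscle markers.

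General macrophage markers were compared to show how the wider cell type read on the same arrays. Of 16 tested, 12 differences were positive and 4 negative, with a median of 0.63, or 0.26 without *ob/ob* 3 and 0.57 without control 3. Higher without overlap were 4 of the 16, against 3.78% of all genes: *Cx3cr1*, the fractalkine receptor (1.05, standard error 0.45), *C1qa*, a chain of complement C1q (0.90, standard error 0.37), *Fcgr1*, a receptor for IgG (0.74, standard error 0.46), and *Cd14*, the co-receptor for lipopolysaccharide (0.23, standard error 0.29). None of the 16 passed an adjusted limma p under 0.05, while 1 (*C1qa*) passed unadjusted, as did 2 with the methods' t-test. The mean log2 signal of the list was 6.42, 6.53, and 6.71 on the control arrays, against 6.92, 6.79, and 7.51 on the *ob/ob* arrays, without overlap. *Adgre1*, the most used macrophage marker in mice, was among the 4 with a negative difference (−0.21, standard error 0.46). It was chosen after its values were seen and was lowest on *ob/ob* 3, at 7.42, whereas 9 of the 16 markers were highest on that array.

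Markers of skeletal muscle and fibroblasts were also mostly highest on *ob/ob* 3. Unlike those of the 9 genes, their means on control 3, *ob/ob* 1, and *ob/ob* 2 lay well below those on control 1 and control 2. The mean log2 signal of 8 skeletal muscle markers was 10.11, 10.34, and 7.75 on the control arrays, against 5.95, 5.67, and 11.80 on the *ob/ob* arrays, and 6 of the 8 were highest on *ob/ob* 3. Their median difference was −1.15, or −3.26 without *ob/ob* 3 and −2.12 without control 3, and 7 of the 8 differences were negative. *Mylpf*, a myosin light chain, was the only marker without overlap and the only one with a positive difference (1.19, standard error 0.44). Its probe was dim and detected on 5 of 6 arrays, at 4.14, 3.68, and 5.10 on the control arrays, against 5.51, 5.59, and 5.39 on the *ob/ob* arrays. Of 8 fibroblast markers, 7 were highest on *ob/ob* 3, with list means of 9.09, 8.88, and 7.05 against 6.48, 6.36, and 10.39 and a median difference of −0.50, or −1.87 without *ob/ob* 3 and −1.19 without control 3. The largest were *Dcn*, which encodes decorin (−1.65, standard error 1.65), and *Pi16*, a marker of fibroblast progenitors (−1.35, standard error 0.63).

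All 8 brown adipocyte markers had a negative difference (median −2.41, or −3.11 without *ob/ob* 3 and −3.51 without control 3). Lower without overlap were 3 of the 8, against 4.22% of all genes: *Elovl3*, a fatty acid elongase, *Ppargc1a*, a coactivator of mitochondrial genes (−2.91, standard error 0.87), and *Zic1*, a transcription factor of brown fat (−2.08, standard error 0.48). *Elovl3* read 9.20, 9.35, and 5.48 on the control arrays and was not well above background on any *ob/ob* array. Its control mean was 15.8-fold above the mean of the dimmest signals of any probe well above background on the *ob/ob* arrays (log2 4.02). That fold rests on control 1 and control 2, since control 3 lay far closer to this level. The level is that of the array and not of the *Elovl3* probe, so the fold is a rough guide. The list means were 10.98, 10.68, and 8.11 on the control arrays, against 7.06, 7.13, and 8.25 on the *ob/ob* arrays. The part of the tissue makeup of each sample in the values of the lipid-associated macrophage genes was not tested. None of the muscle, fibroblast, and brown adipocyte markers passed an adjusted limma p under 0.05, while *Mylpf*, *Elovl3*, *Ppargc1a*, and *Zic1* passed unadjusted.

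**Figure D4:**
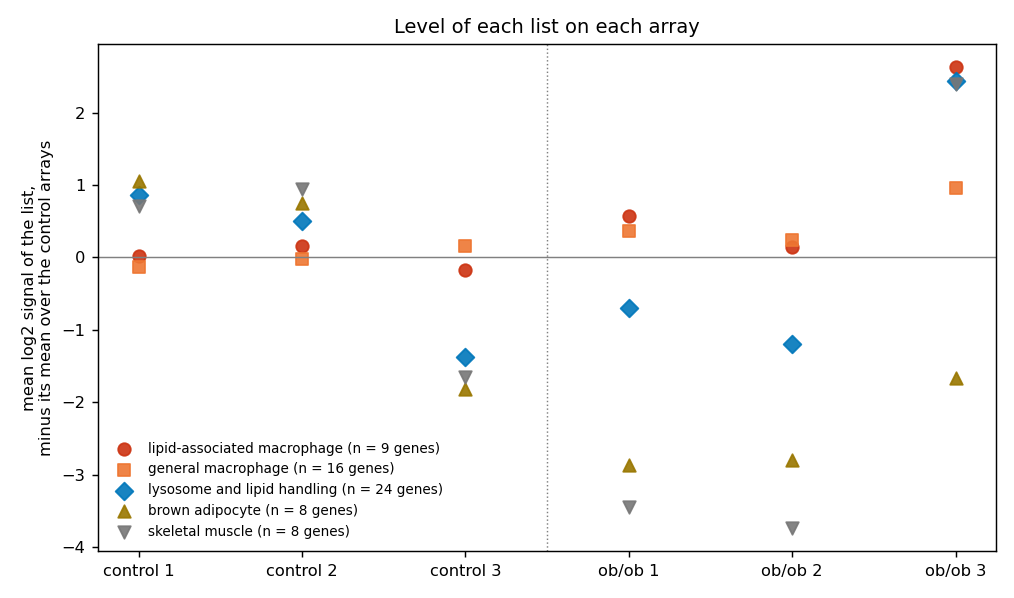
Mean log2 signal of 5 lists on each array, minus the mean of that list over the control arrays. Each point is a list on an array. The lipid-associated macrophage genes stood at 0.016, 0.15, and −0.17 for the control arrays 1, 2, and 3, against 0.57, 0.14, and 2.63 for the *ob/ob* arrays. On *ob/ob* 3, the lysosome and lipid handling genes (2.43) and skeletal muscle markers (2.40) also stood high, and on control 3 both stood low.

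The genes outside the list whose pattern over the 6 arrays was most like it were found by correlation with the mean of the 9 genes, each standardized over the arrays. That mean was −0.67, −0.42, and −0.31 on the control arrays, against −0.034, −0.26, and 1.70 on the *ob/ob* arrays, so that it was dominated by *ob/ob* 3. Of 15885 genes detected on all arrays, the 5 with the highest Pearson r were *Blnk*, an adaptor of immune receptor signaling (0.999), *Napsa*, an aspartic protease (0.993), *Tcaim*, a mitochondrial protein (0.993), *Nfam1*, an activating receptor of immune cells (0.992), and *Ear10*, a secreted ribonuclease (0.990). Without *ob/ob* 3, r was 0.982, 0.980, 0.886, 0.981, and 0.828 in the same order. *Blnk* read 6.10, 6.23, and 6.41 on the control arrays, against 6.57, 6.41, and 8.06 on the *ob/ob* arrays. These r values are a description over 6 points that share the same arrays.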

How the data were processed

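The 6 iBAT samples, 3 control and 3 *ob/ob*, were each read on 1 single-dye Agilent array and were grouped and numbered by the sample labels. For each array, the authors deposited the scanner intensity of each spot, background corrected within the array with Agilent Feature Extraction (version 11.0.1.1, from the submitters' processing notes). The authors also deposited log2 values that were quantile normalized in GeneSpring, used here as an alternative. Their correlation with the scanner log2 values of the same array was between 0.987 and 0.998.

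Of 43020 spots for 39429 probes, outlier spots were left out, as were 104 probes with no other spot on an array. Log2 intensities of the spots of a probe were averaged and then quantile normalized between arrays. Detection on at least 3 of 6 arrays left 35448 probes, which were fitted with limma 3.58.1 (R 4.3.3) for *ob/ob* minus control, and p values were adjusted over all of them by the Benjamini-Hochberg method. RefSeq tables of assembly GRCm38.p6 named 27174 of 28623 probes with a RefSeq accession (94.9%). The brightest probe detected, by its mean over the arrays, stood for a gene. The code was tested on simulated data. Precision is limited by the number of arrays.

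The 10 genes, the lists, the rules, and the alternatives were chosen with earlier results of these data known. Lists were written from general knowledge. Besides the 9 genes, each list has its genes past an adjusted p under 0.05 named, or, if none passed, up to 4 with the largest difference among those without overlap, or otherwise the 2 with the largest difference. *Tyrobp*, *Ctss*, *Adgre1*, *Ucp1*, *Lep*, and the genes at an unadjusted p under 0.05 are named beside these, chosen after their values were seen. The lists are the *Trem2* pathway, lysosome and lipid handling genes, partners, relatives, and regulators, and markers of general macrophages, dendritic cells, neutrophils, lymphocytes, fibroblasts, endothelial cells, brown adipocytes, adipocytes, skeletal muscle, osteoclasts, melanocytes, and platelets.

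Alternatives were 75th percentile scaling, normexp background correction (offset 50), the authors' normalized values, no filter or detection on all 6 arrays, an intensity trend with robust estimation, the methods' t-test, the replicate number or the scan as a block, the mean of a gene's probes, and leaving out each array. Leaving out control 3 and *ob/ob* 3 together was chosen after seeing the data. Counting intervals do not apply to array signals.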

Additional observations from a re-analysis of the deposited data

How the results depend on the processing

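No probe passed an adjusted p under 0.05 in the limma fit (1245 of 35448 at an unadjusted p under 0.05), nor with the methods' t-test (1512 unadjusted). With an intensity trend and robust estimation 1 probe passed, for *Impg2* (−6.26, adjusted p 0.0413). With the replicate number as a block 0 passed (359 unadjusted). Deviations of same-numbered arrays correlated at −0.78, −0.66, and −0.85, and nothing in the labels pairs them. Leaving out 1 array at a time gave 0 calls in every case over all probes, over the 90 related genes, and over the 16 macrophage markers. Leaving out control 3 and *ob/ob* 3 together gave 16259 probes, 57 related genes, and 9 macrophage markers. These arrays were picked after it was seen that each resembled the other group more than its own, and 2 arrays per group remained, so that these counts follow from the choice and carry no weight as a test. The count of the 9 genes higher without overlap was 3 to 6 when 1 array was left out. It was 6 without control 3, which adds *Mmp12*, *Msr1*, and *Spp1*, and 6 without both. The share of all genes higher without overlap also grew, from 3.78% to 12.7% without control 3 and 38.1% without both. The rise of the count is therefore not particular to the 9 genes. They were chosen from this same contrast, so the counts are a description and carry no test. *Lgals3*, *Trem2*, and *Atp6v0d2* were without overlap under all 15 settings compared. Leaving out arrays, comparing only within the shared scan, or changing the detection filter could not have made their groups overlap. Only the settings that changed the values themselves could have done so. The median difference ranged from 0.19 (without *ob/ob* 3) to 1.09 when 1 array was left out and was 0.41 without both. *Gpnmb* turned to −0.21 without *ob/ob* 3 and −0.54 without both, and reached 1.65 without *ob/ob* 2. *Itgax* turned to −0.18 and −0.011 in the same comparisons and to −0.37 with the scan as a block, and reached 0.998 without *ob/ob* 1. *Cd9* turned to 0.29 without *ob/ob* 2, and was −2.31 without *ob/ob* 3 and −3.39 without both. The causes were not tested. Scaling to the 75th percentile moved the median difference of all genes from −0.086 to −0.30, and that of the 9 genes to 0.81. The median of the 9 genes was 0.39 with normexp and 0.29 with the scan as a block, and *Atp6v0d2* was 0.68 with normexp. Signal near background limits *Gpnmb*, which was detected on 4 of 6 arrays, and the second probes of *Msr1*, *Mmp12*, and *Atp6v0d2*. Other probes were dim as well. *Trem2* read 4.88, 4.97, and 5.37 on the control arrays, where the dimmest signals well above background were 3.75, 3.84, and 4.15. With normexp the difference of *Trem2* fell from 2.25 to 1.22, that of *Itgax* from 0.56 to 0.27, and that of *Msr1* from 0.59 to 0.26.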

Other observations

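Markers of other immune cells were read on the same arrays. Of 5 dendritic cell markers tested, 0 differences were positive (median −0.15, or −0.13 without *ob/ob* 3 and −0.31 without control 3), and *Xcr1*, the chemokine receptor of cross-presenting dendritic cells, was lower without overlap (−0.70, standard error 0.33). Of 8 lymphocyte markers (median −0.032, turning to 0.21 without *ob/ob* 3 and 0.13 without control 3), *Ms4a1*, which encodes CD20 of B cells, was higher without overlap (1.16, standard error 0.36), and the T cell genes *Cd8a* (−0.91, standard error 0.54) and *Cd3e* (−0.85, standard error 0.51) were lower. None of the dendritic cell and lymphocyte markers was highest on *ob/ob* 3, while 4 of 7 neutrophil markers were, against 30.2% of all genes. All 9 lipid-associated genes were highest there, but so were 10 of 11 *Trem2* pathway genes and 21 of 24 lysosome and lipid handling genes. Being highest on *ob/ob* 3 is therefore not particular to the 9 genes. Of 7 neutrophil markers tested (median 0.55, turning to −0.19 without *ob/ob* 3 and −0.012 without control 3), no gene was without overlap, and the largest differences were those of *Elane*, neutrophil elastase (−0.97, standard error 0.73), and *S100a9*, a calprotectin subunit (0.74, standard error 1.62). None of these markers passed an adjusted limma p under 0.05, and *Ms4a1* was the only one to pass unadjusted.

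Markers of further cell types were compared in the same way. *Acp5* (−1.17, standard error 1.34) and *Dcstamp* (0.94, standard error 0.74) were the largest of 5 osteoclast markers tested (median 0.11, turning to −0.064 without *ob/ob* 3 and −0.44 without control 3). *Tyr* (−0.71, standard error 0.81) and *Dct* (−0.32, standard error 0.38), enzymes of melanin synthesis, were the largest of 4 melanocyte markers tested (median −0.27, turning to 0.24 without *ob/ob* 3, and −0.091 without control 3). *Pf4* (1.08, standard error 1.20) and *Ppbp* (0.20, standard error 1.44), platelet chemokines, were the largest of 4 platelet markers tested (median 0.18, or 0.10 without *ob/ob* 3 and 0.26 without control 3). The groups of all 6 genes overlapped. Of 6 endothelial markers (median −1.08, or −1.43 without *ob/ob* 3 and −1.56 without control 3), the largest were the VEGF receptor *Kdr* (−3.44, standard error 1.45) and the cadherin *Cdh5* (−2.69, standard error 1.52), both with overlap. Of 6 adipocyte markers (median −0.65, or −1.25 without *ob/ob* 3 and −1.04 without control 3), *Lep* was higher without overlap (2.07, standard error 0.93) and *Retn*, which encodes resistin, was lower (−1.98, standard error 0.76). Of these 5 lists, no gene passed an adjusted limma p under 0.05, and only *Retn* passed unadjusted.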
